A study of Homo sapiens with 2 samples.

Results

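The genes described here were 10 members of the MYC network: the MYC family genes MYCN, MYC and MYCL1, their partner MAX, the MAX-binding genes MXI1, MXD1, MXD3 and MXD4, the MYCN neighbour DDX1, and ODC1, a textbook target of MYC proteins. They were taken by gene name from 30982 gene names on a whole-genome array, with every probe that carried one of these names. This gave 20 of the 41000 distinct probes, on 29 spots. The arrays compared Y79 cells, a human retinoblastoma line grown in suspension, without siRNA and 48 h after an siRNA against the surface protein Ep-CAM (gene TACSTD1). Each condition had 1 array, no array held a scrambled siRNA, and the study's methods add that both cultures had first been exposed to 5′-azacytidine, which inhibits DNA methylation. The comparison asks how levels of these RNAs differ once Ep-CAM has been targeted. Since the control received no siRNA, an effect of siRNA as such and one of targeting Ep-CAM cannot be told apart. All ratios compare these 2 arrays, without a test between the conditions.

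MYC proteins bind DNA as pairs with MAX at the E-box CACGTG and raise transcription, mostly of genes for growth: ribosome assembly, nucleotide and polyamine synthesis, and entry into the cell cycle. MXI1 and the MXD proteins also pair with MAX at these sites and recruit corepressors, so that they act against MYC. MYCN drives proliferation of embryonal tumors of the nervous system and of some retinoblastomas. Y79 is known to carry extra copies of MYCN, and of DDX1, the RNA helicase gene beside it. ODC1 encodes ornithine decarboxylase, the enzyme that starts polyamine synthesis.

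The E-box is shown first, since it is the sequence through which the network reaches ODC1. RefSeq promoter windows (GRCh38.p14, 250 bases before to 50 bases after a listed start) were read for 9 of the 10 members, in 13 windows. MYCL1 was read under its current symbol MYCL, and MYC was left out. CACGTG, which reads the same on both strands, was in windows of 2 of these 9 members, ODC1 and MXD4. That is 22.2% of them, against 8.77% of all 27305 genes with a window, and 7.26% of all 35116 windows held it. ODC1 was a member because it is a known target of MYC proteins, so its match was not independent of the choice. The ODC1 window around the start at position 10448012 of chromosome 2 held it at 2 places, with first bases at -29 and 5 from that start, and 0.664% of all windows held at least 2. The other listed ODC1 start lies 315 bases upstream of it and its window held none. In both stretches below, 5′ to 3′ on the gene's own strand, the capitals mark the E-box.
ODC1, chr2:10447983-10448072, minus strand, 60 bases before to 30 bases after the start: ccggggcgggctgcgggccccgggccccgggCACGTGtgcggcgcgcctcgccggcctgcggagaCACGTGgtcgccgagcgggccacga
MXD4, chr4:2262300-2262359, minus strand, first 60 bases of the window: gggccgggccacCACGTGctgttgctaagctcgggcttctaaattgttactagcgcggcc
These are matches of letters, and the arrays did not measure binding at them.

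Of the 20 member probes, 18 were measured on both arrays, meaning that the scanner software marked them as well above background on both. The other 2, the MYCL1 probe A_24_P156757 and the MXD1 probe A_24_P379750, stayed too dim for that mark on both. All 10 members kept at least 1 measured probe. A probe was called higher or lower when its log2 ratio, siRNA-treated over siRNA-untreated after each array was divided by its median, reached 1 or -1, a 2-fold difference. Of the measured member probes 0 were called higher and 1 was called lower, the ODC1 probe. Among all 29345 probes with a ratio or a bound, 1.27% were called higher and 0.927% lower. The median log2 ratio of the 18 member probes was -0.01, and that of all 26976 measured probes -0.03. Of the member probes 17 (94.4%) lay within 0.5 of 0, against 89.3% of all measured probes.

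**Figure D1:**
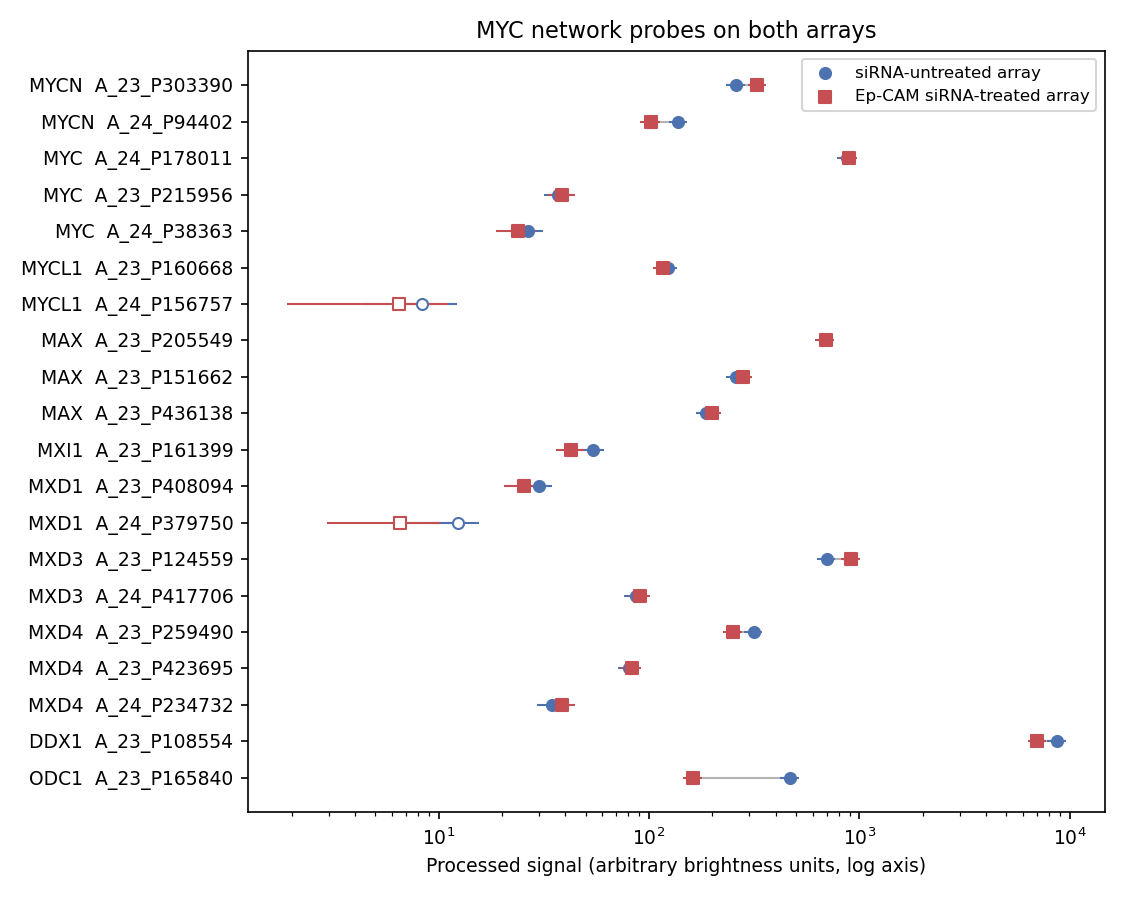
Processed signal (arbitrary brightness units, log axis) of each of the 20 member probes on the siRNA-untreated array (circles) and the Ep-CAM siRNA-treated array (squares), with bars for the mean error the scanner software gave per spot and open symbols for the 2 probes not well above background. The symbols of ODC1 stand clearly apart (468 and 163), while most other pairs touch or overlap.

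The error of a ratio could be judged only within the arrays. The scanner software gave each spot an error from its own model of noise, and carried into the log2 ratio this came to between 0.20 and 0.41 for the measured member probes printed once. Over 191 probes printed 10 times on each array, the median SD of the log2 ratio between spots was 0.14, and it was 0.23 for probes with a mean signal under 60, 0.13 from 60 to 600 and 0.08 over 600. Neither number holds the spread between cultures. For the MYC probe printed 10 times, the SD of the log2 ratio between its spots not marked as outliers (0.25) served as the error. With this and the software's errors for the others, 16 of the 18 member probes lay within 2 errors of 0. The exceptions were the ODC1 probe and the MYCN probe A_24_P94402. This count rests on the larger of the 2 measures, since each error exceeded the median SD between repeated spots at a like signal. Set against that SD, 4 more probes lay more than 2 SDs from 0. They were MXD3 A_23_P124559 (0.35), DDX1 A_23_P108554 (-0.35), MXD4 A_23_P259490 (-0.36) and MYCN A_23_P303390 (0.30).

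MYCN had 2 measured probes, and they differed in opposite directions, except with a normexp background correction fitted on all spots, where both were below 0 (-0.26 and -0.59) and the median of all measured probes was -0.20. Their first 30 of 60 bases are printed because the probes read different stretches of the gene and differ in base composition: GC made up 73.3% of the whole probe A_23_P303390 and 35.0% of A_24_P94402.
MYCN A_23_P303390, hg17 chr2:16031406-16032669: ggcccacccggagacacccgcgcagaatcg
MYCN A_24_P94402, hg17 chr2:16037365-16037424: gttaatctctgttatgtactgtactaattc
The coordinates are those of the array files, and the first probe spans 1264 bases of genome with its 60 bases, so it crosses a gap between aligned blocks. A_23_P303390 gave a signal of 259 ± 26.1 (software error) untreated and 327 ± 33.0 after siRNA, a log2 ratio of 0.30 ± 0.21. A_24_P94402 gave 138 ± 14.2 untreated and 102 ± 11.0 after siRNA, a log2 ratio of -0.47 ± 0.22. One probe of the MYCN transcript was thus brighter and the other dimmer after siRNA, each by less than 2-fold. The ratios were 0.77 apart, 2.60 times the error of that difference. Of the 11 pairs of measured probes of the same member, this was the only pair apart by more than 2 errors, and the median distance between the probes of a pair was 0.18. No single direction could therefore be given for MYCN. The spot of A_23_P303390 lay at the edge of a region of the arrays with uneven ratios (rows 355 to 532, columns 43 to 85), but the 82 measured spots within 5 rows and 5 columns of it had an SD of 0.28 and a median of 0.01. The 76 neighbours of A_24_P94402 had a median of 0.00 and an SD of 0.34.

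MYC, the family member active in most dividing cells, differed by less than the technical error at each of its 3 probes in the main processing. The probe A_24_P178011 gave 873 untreated and 891 siRNA-treated, a log2 ratio of -0.01 ± 0.20, but -0.67 with normexp fitted on all spots. It is assigned to another transcript record than the 2 other probes, which are assigned to the RefSeq mRNA and were far dimmer. The bright probe need not read the same RNA as they do. The probe A_24_P38363 was dim, at 26.6 and 23.9, with a log2 ratio of -0.19 ± 0.41, and 0.15 with that normexp. The third probe, A_23_P215956, was printed at 10 places, which gives a view of the noise at such signals. Its untreated spots ran from 30.7 through a median of 36.0 to 47.4, and its siRNA-treated spots from 33.1 through 39.1 to 46.2, so the 2 sets of spots overlapped almost fully. The software marked 4 of the siRNA-treated spots as outliers, and the mean of the rest against the 10 untreated spots gave a log2 ratio of 0.05. Taken spot by spot, the 10 ratios ranged from -0.42 to 0.56 with an SD of 0.29, with 6 above and 4 below 0.

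MYCL1, the third family member, had 1 measured probe. A_23_P160668 gave 123 untreated and 116 siRNA-treated, a log2 ratio of -0.11 ± 0.21, and the other probe was at 8.31 and 6.50, below what the arrays could measure. MAX, the obligate partner of every MYC protein, also stayed within the technical error at its 3 probes in the main processing. They gave 687 and 692, 259 and 281, and 186 and 200 on the untreated and siRNA-treated arrays. Their log2 ratios were -0.02, 0.08 and 0.07, all within 0.11 of each other and each with an error of 0.20 to 0.21. With normexp fitted on all spots they were -0.63, -0.35 and -0.37.

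Of the 7 measured probes of the MAX-binding repressors, 3 were below 0 and 4 above, and none reached 2-fold. MXI1 had 1 probe, at 54.5 ± 6.77 untreated and 42.5 ± 6.43 siRNA-treated, a log2 ratio of -0.39 ± 0.28. MXD1, an antagonist linked to differentiation, was near the limit of measurement at 30.1 and 25.4, a log2 ratio of -0.28 ± 0.35. The 2 dim pairs of values were thus lower after siRNA by no more than 2 errors. MXD3, the member of this group known for its expression in proliferating cells, gave the highest log2 ratio of all members, 0.35 ± 0.20, with 700 ± 70.1 untreated and 912 ± 91.3 siRNA-treated at A_23_P124559, and it was -0.34 with normexp fitted on all spots. Its probe A_24_P417706 gave 86.5 and 91.0, a log2 ratio of 0.04 ± 0.24, and lay among spots of the uneven region whose SD was 0.66.
MXD3 A_23_P124559, hg17 chr5:176667304-176667440, first 30 of 60 bases: ggacagtctggactcctcaggcctctcctc
MXD3 A_24_P417706, hg17 chr5:176665272-176665331, first 30 of 60 bases: agaacaagaagccataaataaggtcgtttt
These sequences are shown because the files assign them to different transcripts, a RefSeq mRNA and another cDNA, so that they need not read the same RNA. MXD4 gave 315 and 251 at its brightest probe, A_23_P259490, a log2 ratio of -0.36 ± 0.21, while its other probes gave 80.5 and 82.9, and 34.6 and 38.8, log2 ratios of 0.01 ± 0.23 and 0.13 ± 0.31. Of the 87 spots around A_23_P259490, 4 were called lower and their SD was 0.47.

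DDX1, the helicase gene next to MYCN, was bright on both arrays. Its only probe gave 8725 ± 873 untreated and 7027 ± 703 siRNA-treated, a log2 ratio of -0.35 ± 0.20.
DDX1 A_23_P108554, hg17 chr2:15721573-15721632, first 30 of 60 bases: agacatctttcctgcatcttggctaccttc
The sequence is given as the only one on which the DDX1 value rests. Bright probes as a class had lower ratios: the median log2 ratio was -0.31 over 991 measured probes with a mean signal over 3000, -0.09 from 600 to 3000, -0.02 from 60 to 600 and -0.01 under 60. DDX1 was thus close to the median of the bright probes, and its log2 ratio was -0.03 with quantile normalization, which equalises the 2 distributions of signal, and -0.96 with normexp fitted on all spots.

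ODC1 was the only member that differed by more than 2-fold between the arrays. Its only probe gave a signal of 468 ± 47.0 untreated and 163 ± 16.9 after siRNA, 2.95-fold lower after siRNA.
ODC1 A_23_P165840, hg17 chr2:10531386-10531445, first 30 of 60 bases: agcactctggtagctgttaactgcaagttt
The log2 ratio was -1.56 ± 0.21, and 23 of the 26976 measured probes were this low or lower. Of its 73 measured neighbours on the array 1 was called lower, and their median was -0.10. The raw brightness of the spot, before background subtraction, was 502 and 218 over local backgrounds of 39.5 and 41.0. Over 12 other ways of processing, its log2 ratio ranged from -1.56 to -1.25. In RNA from whole cultures, fewer cells with the transcript and less transcript per cell cannot be told apart. No second ODC1 probe was on the arrays to set beside it.

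**Figure D2:**
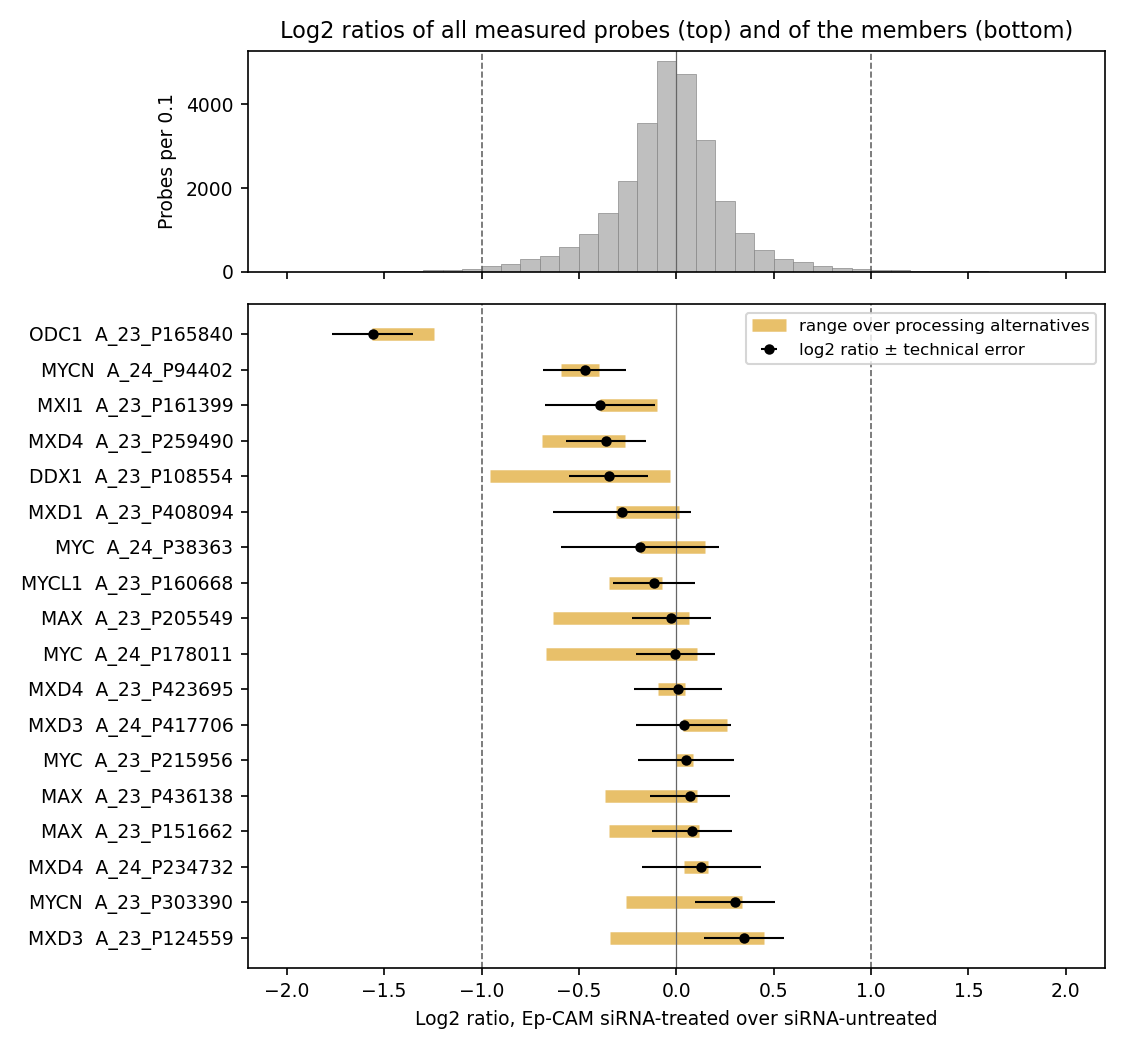
Top, the number of measured probes per 0.1 of log2 ratio for all probes. Bottom, log2 ratio (siRNA-treated over siRNA-untreated) of each measured member probe, with its technical error as a black bar and the range over the processing alternatives as a wide band, and with dashed lines at 1 and -1. ODC1 (-1.56) alone lies past a dashed line, and the 2 MYCN probes lie on opposite sides of 0, except under normexp fitted on all spots.

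**Figure D3:**
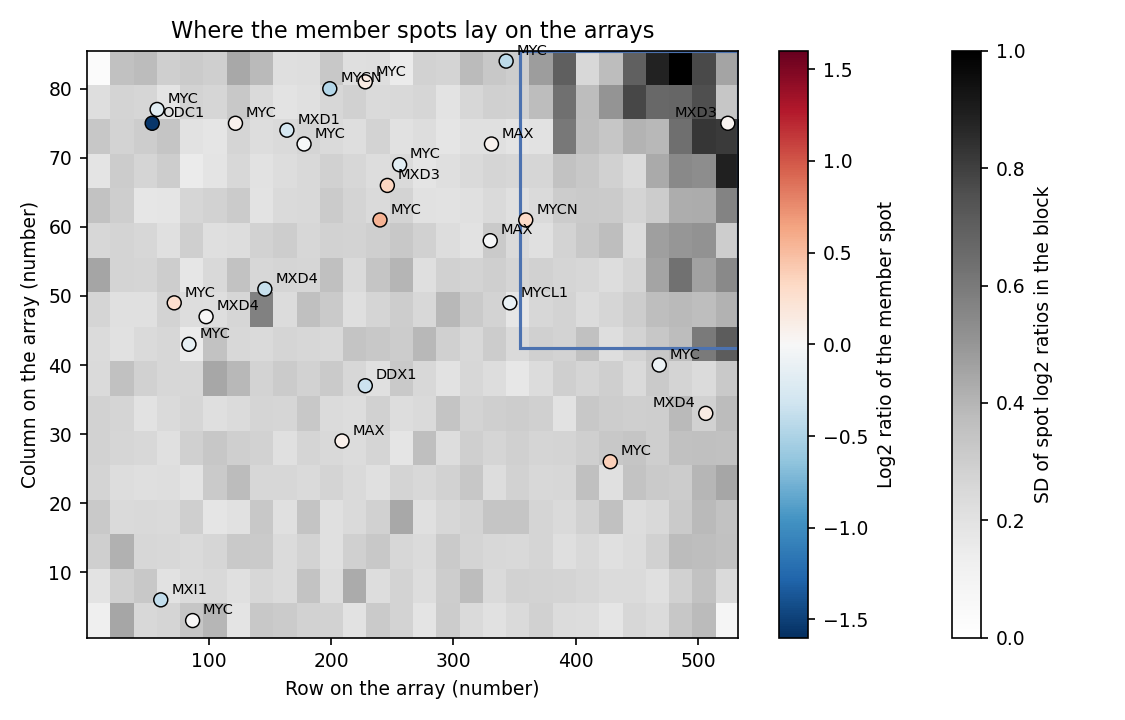
Position of the measured member spots on the array (row and column number), coloured by log2 ratio, with all 10 spots of the repeated MYC probe, the 4 outlier-marked ones included. The grey blocks give the SD of the log2 ratios of all measured spots in them, and the blue frame marks the uneven region. ODC1 lies far from the frame, and MYCN A_23_P303390 and MXD3 A_24_P417706 lie inside it.

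Calls were unevenly spread over the arrays. In the uneven region 5.34% of probes with a ratio or bound were called higher and 2.17% lower, against 0.435% and 0.673% elsewhere. Only 2 of the 20 member probes lay in it.

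MYCN, DDX1 and ODC1 all lie on the short arm of chromosome 2, and the probes around MYCN were examined for a shared direction. Within 6 Mb on either side of the MYCN probes the files placed 97 probes of 71 gene names, of which 61 were measured on both arrays and 66 had a ratio or a bound. Their median log2 ratio was 0.03, with 32 above and 29 below 0, and 55 within 0.5 of 0. Of the 66, 2 were called higher and 1, ODC1, lower, against 1.27% and 0.927% of all probes with a ratio or bound. The higher ones were RRM2, a ribonucleotide reductase subunit, with 33.9 and 72.3, a log2 ratio of 1.06, in the uneven region, and NAG, one probe of which was not well above background untreated (13.2) and 30.6 after siRNA, at least 2.00-fold. RRM2 and NAG each had a second probe that was too dim on both arrays, and with normexp fitted without dim spots they were at 0.52 and 0.31 and no longer called. Directly beside MYCN, the antisense gene MYCNOS gave 136 and 150, a log2 ratio of 0.10 at its measured probe, and FAM49A on the other side gave 41.8 and 42.5, a log2 ratio of -0.01. The genes around MYCN thus scattered about 0, and ODC1 was apart from its neighbours on the chromosome. The arrays measure RNA, and gene copy number was not analysed here.

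**Figure D4:**
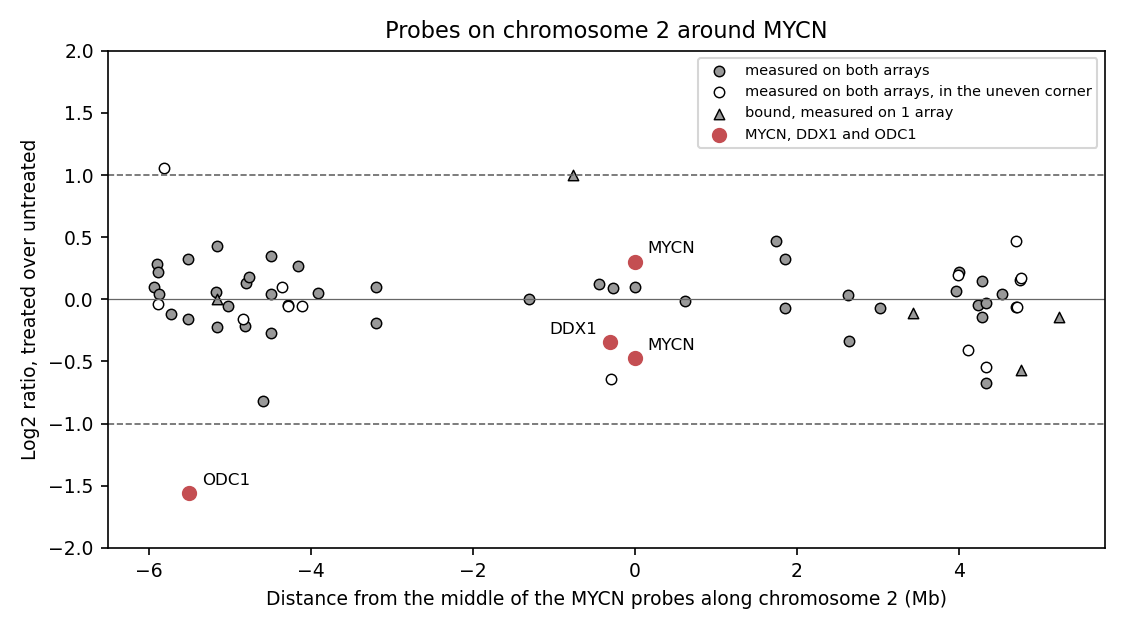
Log2 ratio (siRNA-treated over siRNA-untreated) of probes on chromosome 2 against their distance in Mb from the middle of the MYCN probes. Filled circles are measured probes, open circles measured probes in the uneven region, triangles bounds, and red circles MYCN, DDX1 and ODC1. Most points lie within 0.5 of 0, and ODC1 is the lowest at -1.56.

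The other genes of the pathway were taken from 7 lists and read at the brightest probe of each gene. Over all 23736 gene names with a ratio or bound read this way, 1.33% were called higher and 0.881% lower, and the median log2 ratio was -0.02. The polyamine list, the pathway that ODC1 opens, held 4 lower genes and 0 higher among 21 measured, with a median of -0.16. The 4 were ODC1 itself, AMD1, AZIN1 and MTAP, so 3 besides ODC1. Of the 21, 15 were below 0, as was the median of all gene names (-0.02). The list was chosen with earlier results of these data known, and the paper had already listed ODC1 and MTAP as down-regulated. The count of 4 was thus partly fixed by the choice. AMD1, which makes the aminopropyl donor for spermidine and spermine, gave 4968 and 2152 at its brightest probe, a log2 ratio of -1.24 ± 0.20, and 874 and 522 at the other, -0.78 ± 0.20. Both probes of AMD1 were thus below 0, and 1 of them was called. AZIN1, an inhibitor of the antizymes that degrade ornithine decarboxylase, gave 92.0 and 44.6, a log2 ratio of -1.08 ± 0.25. MTAP, which salvages the by-product of polyamine synthesis, gave 121 and 36.7 in the uneven region, a log2 ratio of -1.75 ± 0.30, and its second probe was well above background only untreated (23.1, then 13.5) while the third was dim on both arrays. With a normexp background correction fitted without dim spots, AZIN1 and MTAP were at -0.51 each and were no longer called, while ODC1 (-1.25) and AMD1 (-1.11) were.

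Other enzymes of the pathway were not called at their brightest probes. Spermidine synthase (SRM) gave 712 and 506, a log2 ratio of -0.53 ± 0.20. Spermine synthase (SMS) gave 4184 and 3329 at its brighter probe (log2 ratio -0.36 ± 0.20) and 42.4 and 25.8 at the dimmer (-0.75 ± 0.30). EIF5A, the translation factor that carries the polyamine-derived residue hypusine, gave 4382 and 2801, a log2 ratio of -0.68 ± 0.20. Its second probe gave 896 and 456, a log2 ratio of -1.01 ± 0.20. That probe met the call, but it is in no count here, since genes were read at the brightest probe. Of the catabolic enzymes, spermine oxidase (SMOX) gave 1630 and 1081 in the uneven region, a log2 ratio of -0.63 ± 0.20. The acetyltransferase SAT gave 8264 and 7800, a log2 ratio of -0.12, and -0.16 at its other probe. Antizyme OAZ1 gave 431 and 450, a log2 ratio of 0.02, and -0.21 and 0.08 at its other probes. The highest ratio in the list, 0.14 ± 0.24, was that of OAZ3 (54.1 and 61.1), in the uneven region.

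Among 41 measured partners and regulators of MYC proteins, 0 were called higher and 1, the zinc finger gene MAZ, lower, with a median of -0.09. MAZ gave 803 and 409 at its brightest probe, a log2 ratio of -1.01 ± 0.20, but 192 and 175, and 68.9 and 81.5, at the others, log2 ratios of -0.17 and 0.21. MAZ was thus lower at 1 of 3 probes, and that probe was at -0.92, not called, with normexp fitted without dim spots. The highest gene was PLK1, a mitotic kinase, with 993 and 1524, a log2 ratio of 0.58 ± 0.20, and -0.18 at its other probe. MNT, the MAX-binding repressor present in most cells, gave 2538 and 2543 at its brightest probe, a log2 ratio of -0.03, and 35.5 and 22.1 at its dim one, -0.72 ± 0.36.

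The medians of the target lists ran from -0.24 to -0.04, and were not tested against each other or against all genes. Among 28 measured genes of nucleolus and ribosome assembly 0 were called in either direction, with a median of -0.17. The nearest was NOLC1, a nucleolar chaperone, at 2849 and 1499, a log2 ratio of -0.96 ± 0.20, against 0.03 at its other measured probe, and the highest was NOLA1 at 0.16. Of 24 translation factors and chaperones 2 were lower and 0 higher, with a median of -0.24. EEF1E1, a component of the tRNA synthetase complex, gave 112 and 55.3 (-1.05 ± 0.23) at its only measured probe, and -0.60, no longer called, with normexp fitted without dim spots. EIF2S1, the alpha subunit of the initiation factor eIF2, gave 975 and 490 (-1.03 ± 0.20) and 0.07 at a dimmer probe, and the highest gene was the chaperonin subunit CCT2 at 0.37.

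Of 35 measured genes of nucleotide synthesis and metabolism, 2 were lower and 1 higher, with a median of -0.12. IMPDH1, an enzyme of guanine nucleotide synthesis, gave 5631 and 2765 at its brightest probe, a log2 ratio of -1.06 ± 0.20, -0.85 at the second and 0.20 at the third. The glycolytic enzyme ENO1 gave 5936 and 2572 in the uneven region, a log2 ratio of -1.24 ± 0.20, and 62.0 and 63.7 at its other probe. The higher gene was UMPS, of pyrimidine synthesis, with dim signals (21.6, then 46.3) at a log2 ratio of 1.07 ± 0.35, and with normexp fitted without dim spots it was at 0.43 and not called. Among 31 measured genes of the cell cycle and DNA replication 1 was lower, CCND3, with a median of -0.04. CCND3, a D-type cyclin, gave 1728 and 367 in the uneven region, a log2 ratio of -2.27 ± 0.20, and 108 and 118 at a probe elsewhere on the array, 0.09 ± 0.21. The highest gene was CCND1 at 0.68 in the uneven region, with -0.08 and -0.71 at its other probes.

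The last list held genes that MYC proteins are known to repress. Of 32 measured, 0 were higher and 1 lower, with a median of 0.00 and 16 on each side of 0. The lower gene was GADD45A, a growth arrest gene, at 3421 and 1679 in the uneven region, a log2 ratio of -1.06 ± 0.20. The highest was CLU at 0.49 ± 0.40, also in the uneven region and dim (18.8 untreated and 27.0 siRNA-treated).

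**Figure D5:**
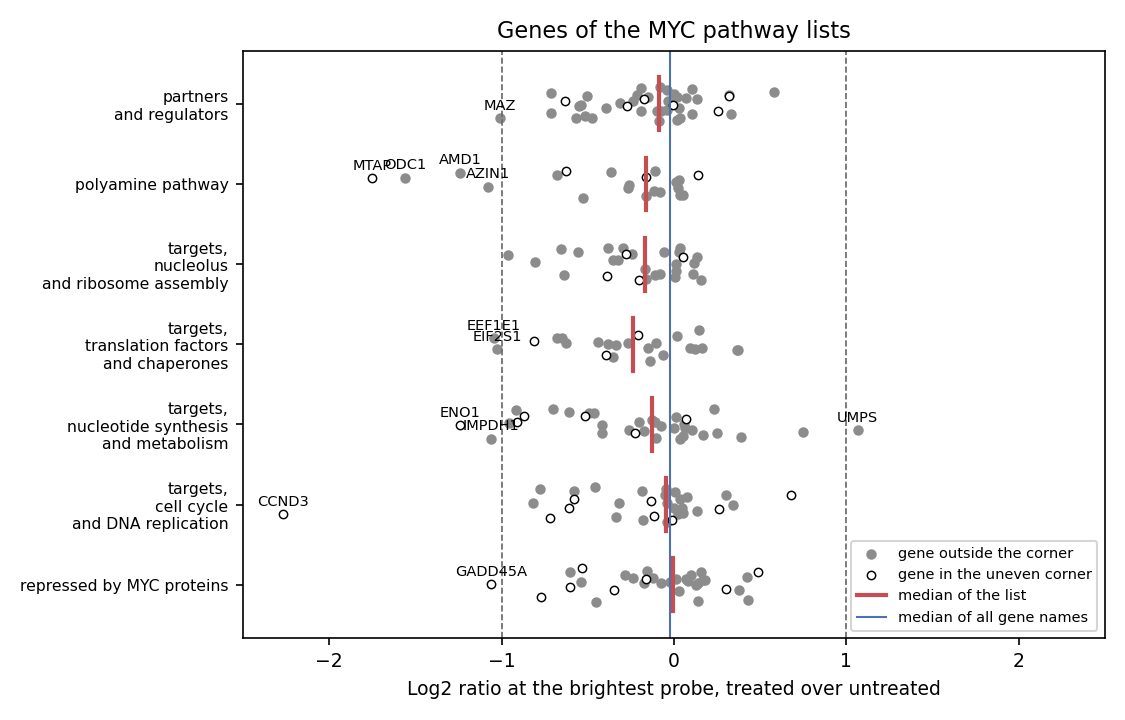
Log2 ratio (siRNA-treated over siRNA-untreated) at the brightest probe of each measured gene in the 7 lists, with open circles for genes in the uneven region, red bars for list medians, a blue line for the median of all gene names (-0.02) and dashed lines at 1 and -1. The polyamine list holds 4 genes past -1, and no list has more than 1 gene past 1.

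The 7 lists held 233 distinct genes on the arrays, dim ones included, of which 11 were called lower, and UMPS was called higher. Among all 23736 gene names with a ratio or bound at the brightest probe, 0.881% were called lower and 1.33% higher. The lists were chosen with earlier results of these data known. ODC1, MTAP, MAZ, EEF1E1, ENO1, CCND3 and GADD45A were already in the paper's table of down-regulated genes. The count of 11 was thus partly fixed by the choice and is no result about the lists. Of the 11 lower genes, 4 lay in the uneven region, where 2.17% of all probes with a ratio or bound were called lower, against 0.673% elsewhere. Of the 6 with another measured probe, AMD1 and IMPDH1 had another probe at -0.5 or less, and of the 8 other probes of these genes 0 were called. EIF5A, not among the 11, was past the call at its dimmer probe only. Signal moved with these values, as it did for DDX1. Of gene names with a mean signal over 600 the median log2 ratio was -0.15 over 2916 genes, against -0.02 from 60 to 600 and 0.00 under 60. Within the lists, the genes over 600 had medians of -0.58 for polyamines (6 genes), -0.37 for the nucleolus (10), -0.38 for translation (15), -0.61 for metabolism (12), -0.58 for the cell cycle (7), -0.31 for partners (21) and -0.17 for repressed genes (9). The part of signal, and of position, in these ratios was not tested.

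The label of the siRNA could not be checked by its target, since the TACSTD1 probe was not well above background (15.6 untreated and 12.0 after siRNA). Of 12 genes of retina and photoreceptor precursors 10 were found by name, and 6 were well above background untreated and 5 after siRNA. CRX, OTX2, RAX, SIX3 and ARR3 were so on both arrays, and NRL, NEUROD1, RCV1 and PDE6H on neither. Of 10 markers of other cell types 9 were well above background on both arrays, with signals from 26.0 to 815 untreated and from 30.2 to 749 after siRNA, and with the T cell gene CD3E as the brightest. Both MYCN probes (259 and 138 untreated) fell within this range. A signal well above background thus need not mean that the named RNA was present. The part of these markers in the ratios above was not tested. In all, 70.4% of spots were well above background untreated and 68.0% after siRNA.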

How the data were processed

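RNA of siRNA-untreated and of Ep-CAM siRNA-treated Y79 cells was hybridised with 1 dye, on 1 Agilent whole-genome array each, both on 1 slide. The deposited files hold the spot intensity that the authors obtained with Agilent Feature Extraction (version 9.5.3.1 in the file headers), after background subtraction and without scaling between arrays. The authors' value table, also deposited, holds raw median intensity. Without control and outlier spots, intensities were scaled to the median of their array (48.8 untreated, 50.0 siRNA-treated), floored at 0.01, put on the log2 scale and averaged over the spots of a probe. A probe was measured where at least 50% of its spots were well above background. Where that held on 1 array only (or 1 array was saturated), the ratio is a bound against the lowest signal well above background (14.9 and 17.5). The number of arrays limits the precision: no test was run. Ratios were computed in Python 3.11.15, with code checked on simulated data, and normexp in limma 3.58.1.

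Members and lists were chosen with earlier results of these data known. Every member probe is named. In each list, at the brightest probe, genes past 2-fold (up to 5 per direction) are named, or otherwise the gene with the largest difference in that direction, with further polyamine enzymes and MNT added after their values were seen. Coordinates are of hg17, as the files give them, and promoters are from RefSeq. Exons and UTRs were not annotated here.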

Additional observations from a re-analysis of the deposited data

How the results depend on the processing

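The ODC1 call held under all 12 alternatives and with ratios of 1.5 and 0.55 as thresholds, and it was the only member call under each. Most of these could hardly change its ratio, and the looser threshold of 0.55 could not undo the call. Its ratio moved by more than the technical SD with normexp fitted without dim spots (-1.25) and with the authors' value table (-1.25). Of 214 recomputed ratios of member probes, 193 moved by less than the technical SD of 0.14. Many of them could not move, so this count does not measure how firm the ratios are. A higher floor, no filter on dim probes and leaving out the uneven region returned the same ratio for every probe kept. A different scaling factor moved all ratios by the same amount. The member median was -0.34 with normexp and an offset of 50 fitted on all spots, which put the median of all measured probes at -0.20 and called 45 probes higher and 1056 lower. Under it the brighter MYCN probe was at -0.26 and the brighter MXD3 probe at -0.34, below 0, and DDX1 at -0.96. With normexp fitted without dim spots, 1 probe around MYCN was called, and the genes called lower numbered 0 among partners, 2 among polyamine genes and 1 among translation factors, with 0 higher in metabolism. With the mean over the probes of a gene, 0 partners, 1 translation factor and 0 metabolism genes were lower. Without the uneven region 1 metabolism gene, 0 cell cycle genes and 0 repressed genes were lower. The cause was not tested, beyond the probes that this setting removes. No list median moved by more than the technical SD under these 3 settings. No paired analysis was possible because each condition had 1 array, and for the same reason no array could be left out. Probes not well above background cannot show a difference here.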
